A study of Mus musculus with 18 samples.

Results

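The 9 genes described here encode the proteins by which circulating leukocytes catch hold of a vessel wall and leave the blood: Icam1, Icam2, Vcam1, Sele, Selp, Selplg, Itgal, Itgam and Itgb2. They were taken as a list of symbols, not picked by their measured values, although earlier results of these data were known. They are 9 of the 45706 genes in the count tables. All 9 had enough counts to be tested in every comparison. The kidneys came from male C57BL/6 littermates (C57BL/6J in the methods of the study), 10 to 12 weeks old, and were frozen 12 h into reperfusion, after both kidneys had been ischemic for 22.5 min. The KO mice carried floxed Cxcl12 or floxed Myc (F/F) together with Pax8rtTA and TetOCre, so that doxycycline switched on the recombinase in tubule cells, and the controls carried the same floxed allele and Pax8rtTA but no TetOCre. Every mouse of both genotypes, controls included, drank doxycycline for 14 days and then had a wash-out of 1 week, and all kidneys were injured, so no uninjured level is given here. The Cxcl12 cohort had 5 KO and 3 control kidneys, and the Myc cohort had 5 of each. Pax8rtTA drives the recombinase in tubule cells, whereas the adhesion genes are known mainly from endothelial cells and leukocytes, which are not targeted.

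Leukocyte recruitment runs in steps. E-selectin and P-selectin on activated endothelium, encoded by Sele and Selp, bind sugars on PSGL-1, encoded by Selplg, and let leukocytes roll. Rolling cells then arrest when integrins change shape: LFA-1, the pair of the Itgal and Itgb2 chains, binds ICAM-1 and ICAM-2, and Mac-1, the pair of the Itgam and Itgb2 chains, binds ICAM-1 and other ligands, while VCAM-1 is held by the integrin VLA-4. E-selectin and VCAM-1 are classically made on demand after inflammatory signals, P-selectin is also stored in endothelial granules and in platelets, and ICAM-2 is made constitutively. Injured tubule cells can also make ICAM-1 and VCAM-1.

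The promoters of 4 of the 9 genes were in the RefSeq table used here (build GRCm38.p6). The sequences of 3 are shown for these reasons: Icam1 and Sele had the smallest and the largest ratio of highest to lowest CPM over the 18 kidneys, and Itgam was the single gene of the 9 called by edgeR with all kidneys of a comparison (other settings, given below, also called others). Each run holds the 250 bases before the RefSeq start, 5′ to 3′ on the gene's own strand, and capitals mark each match to GGANNTTCC, the core of many NF-κB sites. The windows are chr9:21015690-21015939 for Icam1, chr1:164047984-164048233 for Sele and chr7:128062390-128062639 for Itgam, all on the plus strand.
Icam1: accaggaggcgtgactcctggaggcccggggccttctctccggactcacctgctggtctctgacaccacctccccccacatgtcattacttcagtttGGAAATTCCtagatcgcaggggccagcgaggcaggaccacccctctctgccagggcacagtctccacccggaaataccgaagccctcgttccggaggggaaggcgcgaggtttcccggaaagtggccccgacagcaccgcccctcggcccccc
Sele: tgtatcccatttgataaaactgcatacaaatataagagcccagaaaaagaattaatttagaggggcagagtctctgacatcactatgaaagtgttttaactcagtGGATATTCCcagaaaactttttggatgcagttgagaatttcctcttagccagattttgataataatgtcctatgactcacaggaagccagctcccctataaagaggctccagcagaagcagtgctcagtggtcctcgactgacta
Itgam: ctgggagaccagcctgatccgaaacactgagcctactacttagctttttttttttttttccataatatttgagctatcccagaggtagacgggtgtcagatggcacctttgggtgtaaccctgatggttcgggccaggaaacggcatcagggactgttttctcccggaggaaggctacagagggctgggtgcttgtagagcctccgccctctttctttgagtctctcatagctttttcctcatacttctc
The match lay at bases -153 to -145 before the start in Icam1 and at bases -145 to -137 in Sele, which also held TATAAA at -49 to -44 and the reverse complement of GAGGAA, a core of PU.1 sites, at -107 to -102. Itgam had no match to GGANNTTCC and held GAGGAA at -84 to -79 and its reverse complement at -15 to -10. Selp, the other gene with a promoter in the table, had none of GGANNTTCC, TATAAA or GAGGAA. Of 27025 promoters searched over the same length and on both strands, 3.56% held GGANNTTCC, 13.0% TATAAA and 23.1% GAGGAA. The NF-κB consensus, a different pattern that can match without GGANNTTCC, occurred in 7.01% of promoters and in none of these 4. The motifs were picked with the sequences in view, and a match is a description of letters only.

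Reads on genes numbered from 12918220 to 29749500 in a kidney, and no 2 kidneys of a group, in 33 pairs, agreed within sampling noise. In 6 kidneys under 5% of reads were unmapped: Cxcl12 KO 1 and 2, Myc KO 3 and 5, and Myc control 1 and 3. These kidneys, set apart after their values had been seen, are called the deeper kidneys, and no Cxcl12 control is among them. The targeted genes were checked first. Cxcl12 measured 28.7, 36.3, 29.2, 26.3 and 40.9 CPM in Cxcl12 KO replicates 1 to 5 and 55.1, 60.5 and 44.9 CPM in Cxcl12 control replicates 1 to 3, where CPM is the normalised read count, scaled to a common library size with TMM factors. All 5 KO kidneys lay below every control, and the log2 fold change was -0.73 (SE 0.15, adjusted p = 0.094 by edgeR's quasi-likelihood test). Myc measured 37.0, 29.2, 29.7, 26.6 and 32.4 CPM in the KO kidneys of its cohort and 117, 92.7, 85.9, 98.8 and 79.7 CPM in the controls, a log2 fold change of -1.61 (SE 0.12, adjusted p = 8.8e-05). RNA of the untargeted cell types remains in these whole-organ measurements.

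Gene positions below are those of GENCODE M21 on GRCm38. Set against exon length (RPKM, CPM divided by the exon length in kilobases), the levels of the 9 genes differed widely, as the plot of RPKM shows. Icam1 was the most abundant at a mean of 15.8 RPKM over the 18 kidneys, and Itgam, Icam2, Itgb2 and Vcam1 followed with 5.15, 4.64, 3.97 and 3.46 RPKM. Selplg and Sele reached 1.67 and 1.52 RPKM, and Itgal and Selp 0.77 and 0.57 RPKM. The low genes rest on few reads, from 23 to 238 per kidney for Sele and from 20 to 115 for Selp, against 810 to 2075 for Icam1. The order by spread was different. The highest kidney had 9.05 times the CPM of the lowest for Sele, 5.42 times for Selplg, 4.90 for Itgal, 4.59 for Selp and 4.58 for Itgam, but 1.78 times for Icam2 and 1.48 times for Icam1. Within groups, the mean coefficient of variation was larger for Selp (37.9%) and Selplg (36.8%) than for Sele (32.7%), and smallest for Icam1 (8.41%).

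**Figure D1:**
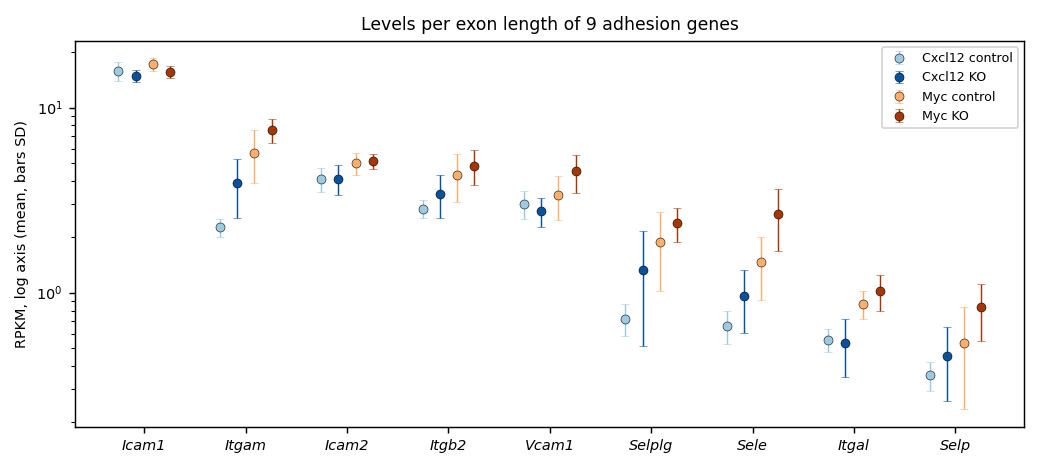
Mean RPKM (log axis) of each gene in the 4 groups, with bars of 1 SD over 3 or 5 kidneys. Icam1 is highest in every group, near 15.8 RPKM on average, and the group means of Sele run from 0.66 to 2.65 RPKM.

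The 9 genes fell into a steady pair, Icam1 and Icam2, and 7 genes that differed more between kidneys, as the plot of single kidneys shows. For 6 of the 9 genes (Icam2, Sele, Selp, Selplg, Itgam and Itgb2) the group means stood in the same order, lowest in Cxcl12 control, then Cxcl12 KO, then Myc control, and highest in Myc KO kidneys. For Icam2 the Cxcl12 control and KO means were nearly equal, at 7.81 and 7.84 CPM, and the fitted log2 fold change was -0.0033. The order was not tested, and the share of all genes that stand in it was not counted. Neighbouring groups in the order of means overlapped for every gene except Itgal, whose Cxcl12 control and Myc control kidneys did not overlap.

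**Figure D2:**
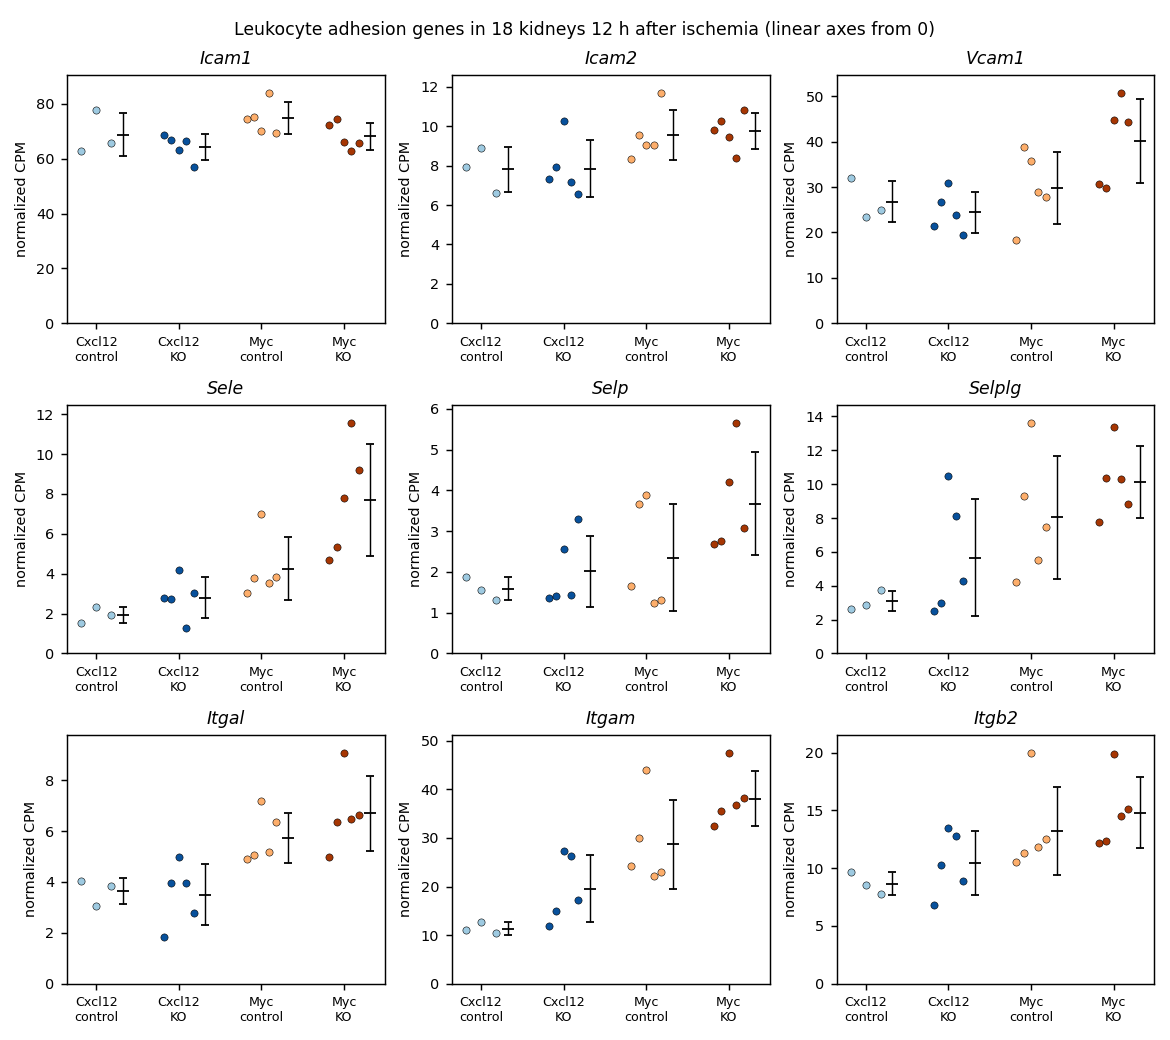
Normalized CPM of each gene (linear axes from 0) in 18 kidneys, 1 point per kidney, with the mean and SD of each group at its right. Myc KO kidneys hold the highest mean of every gene except Icam1, and the highest Sele value, 11.5 CPM, is in Myc KO replicate 4.

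Sele (ENSMUSG00000026582, chr1:164048234-164057677, plus strand), the cytokine-induced selectin of endothelium, had 2.77, 2.73, 4.20, 1.28 and 3.04 CPM in Cxcl12 KO replicates 1 to 5 and 1.55, 2.31 and 1.91 CPM in Cxcl12 control replicates 1 to 3. In the other cohort it had 4.67, 5.35, 7.77, 11.5 and 9.18 CPM in Myc KO and 3.04, 3.80, 7.01, 3.51 and 3.86 CPM in Myc control replicates 1 to 5. Of the Cxcl12 KO kidneys, 4 of 5 lay above every control and 1 below every control. All 5 Myc KO kidneys lay above the mean of the Myc controls and 3 above every control, with Myc control 3 inside the KO range. The log2 fold change was 0.52 (SE 0.33, adjusted p = 0.53) with loss of Cxcl12 and 0.85 (SE 0.28, adjusted p = 0.12) with loss of Myc. With DESeq2 the Myc value was 0.85 (adjusted p = 0.038), and without Myc control 3 it was 1.13 (edgeR adjusted p = 0.029). In no other setting was the Myc value called. Its lowest value was 0.67, without Myc KO 4, and its largest edgeR adjusted p with a kidney left out was 0.25.

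Selp (ENSMUSG00000026580, chr1:164115264-164150026, plus strand), which encodes the selectin stored in endothelial granules and platelets, was the least abundant gene per length. It measured 1.36, 1.40, 2.57, 1.44 and 3.29 CPM in Cxcl12 KO and 1.88, 1.56 and 1.32 CPM in Cxcl12 control kidneys, which overlapped. Myc KO kidneys had 2.69, 2.76, 4.21, 5.65 and 3.09 CPM and Myc controls 1.66, 3.67, 3.89, 1.23 and 1.31 CPM. The controls fell apart into 3 kidneys below every KO kidney and 2 within the KO range. The log2 fold changes were 0.31 (SE 0.35, adjusted p = 0.73) in the Cxcl12 and 0.63 (SE 0.35, adjusted p = 0.31) in the Myc cohort. Exons of Selp overlap those of Gm16587 and Gm16548 on the other strand. Both strands held about equal shares of reads, so strand could not tell reads of these genes apart there. Reads set aside as ambiguous, 2.26 to 2.52% of the reads of a kidney, were in no gene's count.

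Selplg (ENSMUSG00000048163, chr5:113818536-113832644, minus strand), the leukocyte ligand of the selectins, had 2.51, 2.96, 10.5, 8.10 and 4.28 CPM in Cxcl12 KO and 2.66, 2.85 and 3.77 CPM in Cxcl12 control kidneys. KO replicates 3, 4 and 5 exceeded every control and replicates 1 and 2, both deeper kidneys, did not. The log2 fold change was 0.84 with an SE of 0.45 (adjusted p = 0.45). In the Myc cohort the KO values of 7.75, 10.4, 13.4, 10.3 and 8.83 CPM lay within the control values of 4.24, 9.30, 13.6, 5.54 and 7.47 CPM, and the log2 fold change was 0.33 (SE 0.27, adjusted p = 0.49).

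Icam1 (ENSMUSG00000037405, chr9:21015985-21028817, plus strand), the main endothelial ligand of both β2 integrins, was the steadiest gene. Cxcl12 KO kidneys held 68.8, 66.8, 63.0, 66.6 and 56.8 CPM and Cxcl12 controls 62.7, 77.6 and 65.8 CPM. Myc KO kidneys held 72.1, 74.3, 66.0, 62.6 and 65.6 CPM and Myc controls 74.5, 75.4, 70.2, 83.9 and 69.5 CPM. All 5 Myc KO kidneys lay below the control mean and 3 below every control. The log2 fold change was -0.10 with a 95% interval of -0.31 to 0.12 (adjusted p = 0.70) in the Cxcl12 cohort and -0.13 with an interval of -0.29 to 0.03 (adjusted p = 0.33) in the Myc cohort.

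Icam2 (ENSMUSG00000001029, chr11:106377656-106388075, minus strand), the constitutive endothelial ligand of LFA-1, had 7.31, 7.92, 10.3, 7.16 and 6.57 CPM in Cxcl12 KO and 7.91, 8.88 and 6.64 CPM in Cxcl12 control kidneys. It had 9.81, 10.3, 9.46, 8.38 and 10.8 CPM in Myc KO and 8.33, 9.57, 9.07, 9.05 and 11.7 CPM in Myc control kidneys. The groups of each cohort overlapped. The log2 fold changes were -0.0033 (95% interval -0.38 to 0.37) and 0.04 (-0.22 to 0.29), with adjusted p = 0.996 and 0.88.

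Vcam1 (ENSMUSG00000027962, chr3:116109949-116129688, minus strand), the ligand of VLA-4, had 21.4, 26.6, 30.8, 23.9 and 19.5 CPM in Cxcl12 KO and 31.9, 23.4 and 25.0 CPM in Cxcl12 control kidneys. Its Myc KO kidneys measured 30.8, 29.9, 44.7, 50.7 and 44.3 CPM and its Myc controls 18.3, 38.7, 35.7, 29.0 and 27.8 CPM. Myc KO replicates 3, 4 and 5 exceeded every control. The log2 fold change was -0.14 (SE 0.16, adjusted p = 0.74) with loss of Cxcl12 and 0.43 (SE 0.20, adjusted p = 0.23) with loss of Myc. Exons of Vcam1 overlap those of Gm43109 on the other strand, and strand could not tell reads of these genes apart either.

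Itgam (ENSMUSG00000030786, chr7:128062640-128118491, plus strand), the α chain of Mac-1 on neutrophils, monocytes and macrophages, was lowest in the Cxcl12 controls. These measured 10.95, 12.8 and 10.3 CPM and Cxcl12 KO kidneys 11.9, 15.0, 27.4, 26.3 and 17.2 CPM. Of the KO kidneys, 4 of 5 lay above every control. Myc controls measured 24.1, 30.01, 44.0, 22.2 and 22.9 CPM and Myc KO kidneys 32.4, 35.5, 47.4, 36.7 and 38.3 CPM, so that all 5 KO kidneys exceeded the control mean while Myc control 3 lay inside the KO range. The log2 fold change was 0.77 (SE 0.26, adjusted p = 0.26) with loss of Cxcl12 and 0.41 (SE 0.18, adjusted p = 0.21) with loss of Myc. With the deeper kidneys as a covariate the Cxcl12 value was 1.05 (edgeR adjusted p = 0.040), and with the deeper kidneys left out it was 1.04 and not called (edgeR adjusted p = 0.066). Without Myc control 3 the Myc value was 0.62 (edgeR adjusted p = 0.023), and without any other single kidney of that cohort it was not called, with a lowest value of 0.32 without Myc KO 3 (edgeR adjusted p = 0.40).

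Itgal (ENSMUSG00000030830, chr7:127296260-127335138, plus strand), the α chain of LFA-1, which most leukocytes carry, had 1.85, 3.94, 4.98, 3.94 and 2.79 CPM in Cxcl12 KO and 4.04, 3.07 and 3.83 CPM in Cxcl12 control kidneys. It had 4.98, 6.36, 9.05, 6.46 and 6.63 CPM in Myc KO and 4.89, 5.05, 7.18, 5.17 and 6.35 CPM in Myc control kidneys. KO and control kidneys overlapped in both cohorts. The log2 fold changes were -0.07 (SE 0.29, adjusted p = 0.94) and 0.23 (SE 0.17, adjusted p = 0.44).

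Itgb2 (ENSMUSG00000000290, chr10:77530252-77565708, plus strand), the β2 chain shared by both integrins, had 6.82, 10.3, 13.5, 12.8 and 8.93 CPM in Cxcl12 KO and 9.68, 8.56 and 7.77 CPM in Cxcl12 control kidneys. It had 12.2, 12.3, 19.8, 14.5 and 15.2 CPM in Myc KO and 10.5, 11.3, 19.9, 11.8 and 12.5 CPM in Myc control kidneys. KO and control kidneys overlapped here as well, with log2 fold changes of 0.26 (SE 0.21, adjusted p = 0.62) and 0.17 (SE 0.19, adjusted p = 0.64).

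As a list, none of the 9 genes was called with loss of Cxcl12 at an adjusted p under 0.05 by edgeR, against 0% of 15154 genes tested, and DESeq2 and limma-voom called none of the 9 either, where DESeq2 called 2.29% of 15483 genes with an adjusted p. With the deeper kidneys as a covariate edgeR called 1 of the 9, Itgam, and 0.812% of all genes. At an unadjusted p under 0.05 the count was 1 of 9, Itgam, against 13% of all genes. The median log2 fold change of the 9 genes was 0.26, with 5 of 9 above 0, while over all genes it was 0.00083 and 50.2% lay above 0. With loss of Myc, edgeR again called none of the 9, against 1.65% of 14936 genes, and DESeq2 called 1, Sele, against 8.14% of 13285 genes with an adjusted p. At an unadjusted p under 0.05 the count was 2 of 9, Sele and Itgam, against 21.9% of all genes. The median was 0.33, with 8 of 9 above 0, against -0.00083 and 49.9% over all genes. In neither cohort did any of the 9 have KO and control kidneys that did not overlap, a pattern seen for 9.68% of genes in the first cohort and 5.97% in the second. Without Myc control 3, edgeR called 2 of the 9 genes, Sele and Itgam, and 877 genes in all (5.80%) against 246 with it.

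**Figure D3:**
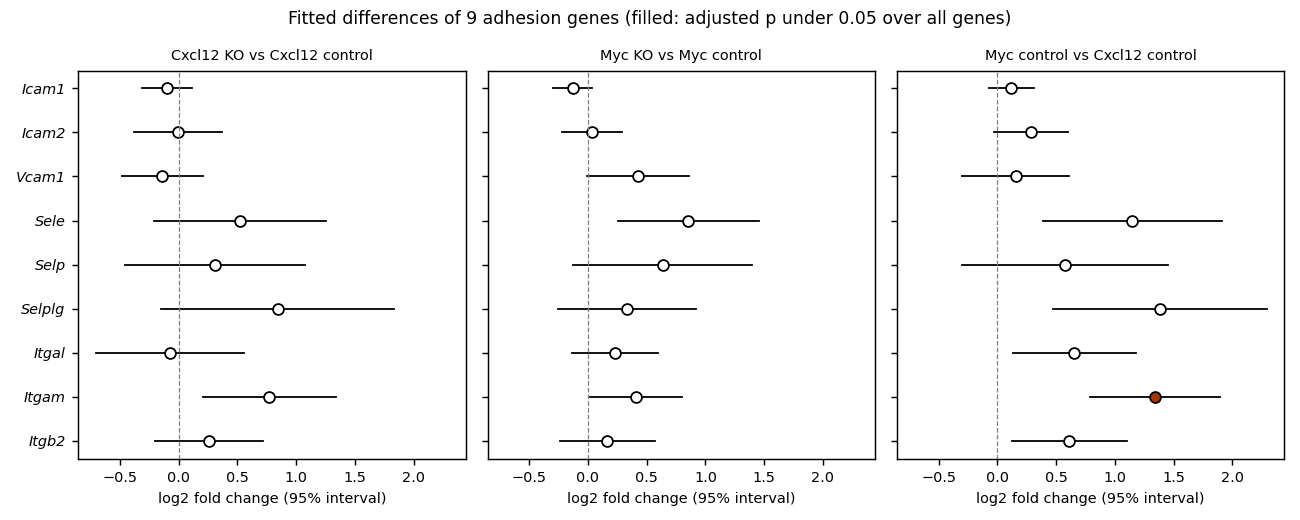
Log2 fold change (points) with 95% interval (lines) of each gene in 3 comparisons, filled where the adjusted p of edgeR over all genes was under 0.05. One point is filled, Itgam between the control groups at 1.34, and the intervals of Icam1 are the narrowest.

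The KO effects of the cohorts were also compared with each other in 1 fit of all 18 kidneys. None of the 9 genes differed by edgeR, DESeq2 or limma-voom, against 0.0692% of 15903 genes called by edgeR and 2.26% of 13873 by DESeq2, and none had an unadjusted p under 0.05, against 11.4% of all genes. The difference, Myc effect minus Cxcl12 effect, was largest for Vcam1 at 0.56 on the log2 scale (95% interval -0.04 to 1.16, adjusted p = 0.47). For Selplg it was -0.51 (-1.66 to 0.64) and for Itgam -0.37 (-1.06 to 0.33). The intervals of Vcam1, Sele, Selp, Selplg and Itgam reached beyond 1 in size on the log2 scale, so alike responses were not shown.

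Between the control groups of the cohorts edgeR called 1 of the 9 genes, Itgam, and DESeq2 called 3, Sele, Selplg and Itgam, against 5.26% of 15048 genes with an adjusted p. All 9 genes had a higher estimate in Myc controls than in Cxcl12 controls, against 49.3% of 15903 genes, with a median of 0.61 for the 9 against -0.0034 for all genes. Itgam measured 28.7 ± 9.1 CPM (SD, n = 5) against 11.4 ± 1.3 CPM (SD, n = 3), a log2 difference of 1.34 (SE 0.26, edgeR adjusted p = 0.015), where 1.99% of genes were called in either direction and 1.12% higher. At an unadjusted p under 0.05 the count was 5 of 9, against 17.7% of all genes. Control kidneys of the cohorts did not overlap for 5 of the 9 genes, Sele, Selplg, Itgal, Itgam and Itgb2, each higher in Myc controls, as for 6.23% of all genes (12.1% did not overlap in either direction). The log2 differences of the other members were 1.39 for Selplg (SE 0.43, adjusted p = 0.10), 1.15 for Sele (SE 0.36, adjusted p = 0.10), 0.66 for Itgal (SE 0.25, adjusted p = 0.18) and 0.61 for Itgb2 (SE 0.23, adjusted p = 0.17), and they were 0.58, 0.28, 0.16 and 0.12 for Selp, Icam2, Vcam1 and Icam1. Leaving out any 1 of the 3 Cxcl12 controls ended the edgeR call of Itgam, with log2 differences of 1.31, 1.44 and 1.28 (adjusted p = 0.096, 0.053 and 0.074). In the same fits the edgeR calls over all genes fell from 316 to 49, 60 and 122. The floxed allele, the cohort and any batch cannot be told apart in this comparison, and it shares its control kidneys with both KO comparisons.

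The median sums of neutrophil and of general leukocyte markers stood in the same order of groups as the 6 genes above. Those of monocyte and macrophage markers did too (169, 206, 261 and 265 CPM), and these lists are in the plot of summed markers. Platelet markers (7.14, 10.2, 12.2 and 20.3 CPM) also had this order, as had the genes of integrin activation and of inflammatory signals to endothelium. The medians of the remaining marker and pathway lists stood in other orders. In a whole kidney, more cells of a type and more mRNA per cell cannot be told apart. The summed level of 14 neutrophil markers ran from 25.6 to 35.4 CPM in Cxcl12 controls, from 40.3 to 183 in Cxcl12 KO, from 64.5 to 328 in Myc control and from 196 to 375 CPM in Myc KO kidneys, and of these markers Camp was at 0 in some kidneys. Myc control 3 was the highest of its group, as it was for Sele, Selp, Selplg, Itgal, Itgam and Itgb2. The median log2 fold change of the neutrophil markers tested was 1.74 with loss of Cxcl12 (11 of 11 above 0, 0 called), 0.66 with loss of Myc (11 of 11, 0 called) and 2.38 between the controls (13 of 13), where 6 were called: S100a8, S100a9, Mmp8, Mmp9, Il1r2 and Trem1. Their part in the values of Itgam, Itgb2, Itgal and Selplg was not tested.

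**Figure D4:**
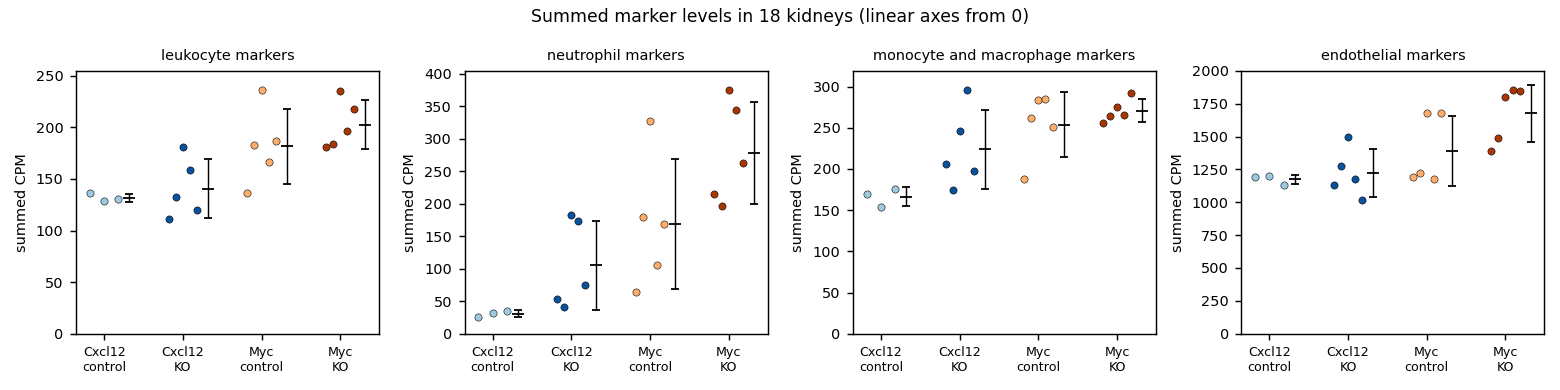
Summed CPM (linear axes from 0) of 4 marker lists in 18 kidneys, 1 point per kidney, with mean and SD at the right of each group. Neutrophil markers run from 25.6 CPM in a Cxcl12 control to 375 CPM in a Myc KO kidney, and endothelial markers from 1020 CPM in a Cxcl12 KO to 1854 CPM in a Myc KO kidney.

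General leukocyte markers differed less, with sums of 129 to 136 CPM in Cxcl12 controls, 111 to 181 in Cxcl12 KO, 136 to 236 in Myc control and 181 to 235 CPM in Myc KO kidneys. Their median log2 fold changes were 0.13, 0.20 and 0.61 in the same 3 comparisons, and 1 of 10, Cd53, a tetraspanin of leukocytes, was called, at 1.18 between the controls (SE 0.27, adjusted p = 0.031). Monocyte and macrophage markers had medians of -0.06 (6 of 13 above 0), -0.11 (5 of 13) and 0.33 (11 of 13). Of these, Cd14 was called between the controls at 1.45 (SE 0.28, edgeR adjusted p = 0.014). Endothelial markers summed to 1134 to 1199 CPM in Cxcl12 controls, 1020 to 1501 in Cxcl12 KO, 1174 to 1683 in Myc control and 1392 to 1854 CPM in Myc KO kidneys, and none was at 0. Their medians were 0.04 (7 of 13 above 0), 0.18 (11 of 13) and 0.22 (9 of 13) with none of 13 called. Platelet markers summed to 6.46 to 8.31 CPM in Cxcl12 controls, 6.82 to 18.8 in Cxcl12 KO, 6.67 to 16.6 in Myc control and 14.4 to 23.0 CPM in Myc KO kidneys. Their medians were 0.37 (3 of 3 tested above 0), 0.59 (4 of 4) and 0.40 (5 of 5). Lymphocyte markers summed to between 2.11 and 4.00 CPM with 9 of 14 at 0 in some kidneys. No platelet or lymphocyte marker was called, but only 3 to 5 of 9 platelet and 1 or 2 of 14 lymphocyte markers had enough counts to be tested. Tubule markers summed to between 7065 and 10362 CPM with none at 0, and 1 of 13, Lrp2, was lower in Myc than in Cxcl12 controls (-0.63, SE 0.15, adjusted p = 0.038). The sums of 9 injured tubule markers ran from 12121 to 13495 CPM in Cxcl12 controls, below every kidney of the other groups, from 14769 to 22972 in Cxcl12 KO, from 14945 to 23663 in Myc control and from 17450 to 26715 CPM in Myc KO kidneys. Their medians were 0.44 with loss of Cxcl12 (9 of 9 above 0, 0 called), 0.11 with loss of Myc (6 of 9, 0 called) and 0.44 between the controls (6 of 9), where Lcn2 was called (1.14, SE 0.23, adjusted p = 0.017). Red cell markers had medians of 1.15 (5 of 6 above 0), -0.02 (2 of 6) and 0.84 (5 of 6), with none called and with sums of 15.1 to 67.5 CPM in Cxcl12 controls and 31.9 to 175 CPM in the other groups. The part of these lists in the adhesion genes' values was not tested. None of 8 fibroblast and pericyte markers was called, with medians of -0.21, 0.09 and -0.10, and no gene of any list was called for a difference between the KO effects.

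Ratios within each kidney set the chains against each other. The log2 ratio of Itgam to Itgb2 per exon length was -0.33 ± 0.20 (SD, n = 3) in Cxcl12 controls, 0.16 ± 0.20 (n = 5) in Cxcl12 KO, 0.39 ± 0.22 (n = 5) in Myc control and 0.65 ± 0.10 (n = 5) in Myc KO kidneys. Itgal to Itgb2 was -2.36 ± 0.23, -2.72 ± 0.21, -2.29 ± 0.18 and -2.25 ± 0.12 (SD) in the same groups, lowest in Cxcl12 KO kidneys. Itgb2 to Ptprc, the gene of the pan-leukocyte protein CD45, was 2.32, 2.18, 2.14 and 2.04, a narrow range, while Itgam to Ptprc was 1.99, 2.34, 2.52 and 2.69. The ratio of Itgam to either gene was thus lowest in Cxcl12 controls and highest in Myc KO kidneys, and that of Itgb2 to Ptprc was highest in Cxcl12 controls. Sele to Pecam1, an endothelial junction gene, was -4.91 ± 0.33, -4.58 ± 0.75, -4.14 ± 0.28 and -3.55 ± 0.39 (SD) in the same groups. Icam1 to Pecam1 was -0.32 ± 0.19, -0.55 ± 0.22, -0.52 ± 0.37 and -0.91 ± 0.27 (SD). These ratios are descriptions and were not tested.

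Calls in the wider pathway were set beside those over all genes. Of all genes tested, edgeR called 0% of 15154 with loss of Cxcl12 and 1.65% of 14936 with loss of Myc. With loss of Cxcl12 none was called of 11 tested genes of rolling and selectin ligands, 12 other leukocyte integrins, 16 genes of integrin activation, 17 of transmigration and junctions and 14 of inflammatory signals to endothelium. With loss of Myc the single call among these lists was Nfkbiz, an inducible nuclear regulator of NF-κB targets, 1 of 15 inflammatory signal genes, at 0.43 (SE 0.10, adjusted p = 0.042). Its value with loss of Cxcl12 was 0.37 (SE 0.09, adjusted p = 0.13). The medians of the 5 lists were 0.13, 0.10, 0.14, 0.17 and 0.29 in the Cxcl12 and 0.14, 0.23, 0.10, 0.24 and 0.30 in the Myc cohort. Between the controls none of the rolling and selectin ligand genes counted here was called, and 5 genes of the other lists were, all higher in Myc controls. They were 1 of 16 genes of integrin activation and 4 of 15 inflammatory signal genes. Of all 15903 genes, 1.99% were called in that comparison and 1.12% were called higher. The 5 genes were Pik3cg, a leukocyte PI3-kinase (1.24, SE 0.25), the cytokines Il1b (2.61, SE 0.57) and Il6 (1.93, SE 0.46), and the NF-κB genes Relb (0.43, SE 0.11) and Nfkbiz (0.43, SE 0.10). Their edgeR adjusted p ran from 0.018 for Pik3cg to 0.040 for Relb.

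Within groups, 6 pairs were compared kidney by kidney after the group means were subtracted, with permutation tests within groups and Benjamini-Hochberg adjustment over the 6. Itgam and Itgb2 gave Pearson r = 0.87 and Spearman rho = 0.70 (permutation p = 0.00074 and 0.0057, adjusted 0.0022 and 0.017). Without the 2 kidneys farthest from the median of Itgam, Myc control 3 and Cxcl12 KO 3, r was 0.76 and rho 0.48 (adjusted permutation p = 0.038 and 0.24), so the rank relation no longer passed. Itgal and Itgb2 gave r = 0.87 and rho = 0.86 (permutation p = 7e-05 and 5e-05, adjusted 0.00042 and 0.0003), and r was 0.82 and rho 0.76 without Cxcl12 KO 1 and 3 (adjusted permutation p = 0.0041 and 0.011). Selplg and Ptprc gave r = 0.62 and rho = 0.52 (permutation p = 0.0094 and 0.041, adjusted 0.019 and 0.061), and Sele and Selp r = 0.59 and rho = 0.56 (permutation p = 0.017 and 0.021, adjusted 0.026 and 0.042). These relations fell to r = 0.40 and 0.46 without the 2 farthest kidneys and no longer passed (adjusted permutation p = 0.19 and 0.13). Leaving out the kidneys farthest in the first gene of a pair narrows its range, which can lower r by itself. How far the relations rest on these kidneys was thus not settled. Icam1 with Vcam1 (r = -0.33, rho = -0.37, permutation p = 0.20 and 0.16, adjusted 0.20 and 0.19) and Icam2 with Pecam1 (r = 0.40, rho = 0.33, permutation p = 0.16 and 0.21, adjusted 0.19 and 0.21) did not pass, with r = -0.33 and 0.16 without the 2 farthest kidneys.

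**Figure D5:**
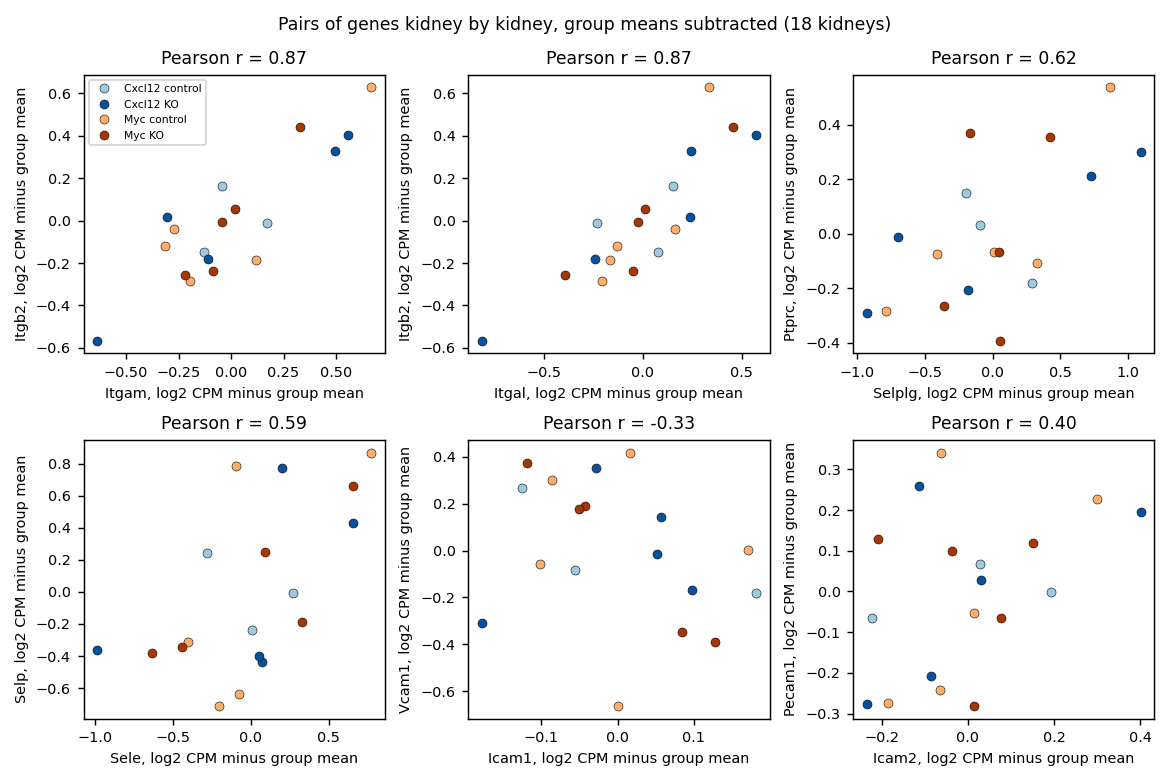
Each panel plots 2 genes in 18 kidneys as log2 CPM minus the group mean, coloured by group, with Pearson r above. The Itgb2 panels follow a line with r = 0.87, and the Icam1 with Vcam1 panel slopes the other way with r = -0.33.

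Among the 12 kidneys outside the deeper ones, r was 0.64, 0.78, 0.44, 0.59, -0.36 and 0.42 for these pairs in the same order, with the smallest adjusted permutation p at 0.24 for r and 0.17 for rho, and the 6 deeper kidneys were too few by group for their own value. With means subtracted by group and by deeper kidneys, r was 0.83, 0.84, 0.71, 0.65, -0.38 and 0.43, and only Itgal with Itgb2 kept an adjusted permutation p under 0.05 (0.034 for r and 0.025 for rho). Of the kidneys left out of the first 4 pairs, Myc control 3 and Cxcl12 KO 1 are deeper kidneys and Cxcl12 KO 3 and 4 are not, and the part of depth in these relations was not tested.

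The genes most like each member were found by the mean absolute difference in centred log2 CPM over all 18 kidneys, among 15893 genes. Itgam was nearest to Cd53 (0.12), Mxd1 (0.17) and Tlr13 (0.18), against a median of 0.62 over all genes. Itgb2 was nearest to Ptprc (0.11), Frmd6 (0.14) and Sla (0.15), and Itgal to Slc15a3, Nckap1l and Fstl1 (0.17 to 0.18). Selplg was nearest to Ccr1 (0.19), Adam8 (0.21) and Alox5 (0.21), against a median of 0.75. Sele was nearest to Ch25h (0.22), Egr1 (0.22) and Gm42929 (0.24), against a median of 0.69, and Selp to Adamts4 (0.27), Gm42928 (0.27) and Socs3 (0.27). Icam1 had its nearest genes in Zfp706, Armc1 and Derl1 (0.06 to 0.08), Icam2 in Acvrl1, Cxcl16 and Samd14 (0.10 to 0.12) and Vcam1 in Marcks, Fstl1 and Car8 (0.16 to 0.17). Within the 9 genes the smallest differences were those of Icam1 with Icam2 (0.18, where the median over all genes was 0.22 for Icam1 and 0.28 for Icam2, a measure that is small for any steady pair), Itgal with Itgb2 (0.20) and Selplg with Itgam (0.24), and the largest was that of Icam1 with Selplg (0.73).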

How the data were processed

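RNA of 18 whole mouse kidneys was sequenced by the authors, who trimmed reads with Trimmomatic 0.32, aligned them to GRCm38 with STAR 2.4.0 and deposited raw counts per gene, not normalized. The column of counts that ignores strand was used, and unmapped, multimapping, ambiguous and unassigned reads stayed out of library sizes. By kidney, the forward column held 51.8 to 52.4% of the unstranded counts and the reverse column 52.3 to 52.8%. The strand columns used as alternatives thus each hold only a part of the reads. The labels number the kidneys of a group but do not name the mice, so p-values measure the spread between these samples.

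Low genes of a cohort were removed by filterByExpr, libraries were scaled with TMM factors, and groups were tested with edgeR 4.0.16 (quasi-likelihood F-test, R 4.3.3), with Benjamini-Hochberg adjustment over all genes tested and a threshold of 0.05. Differences between cohorts were fitted over all 18 kidneys. The batch correction of the study was not repeated because its batches are not named. Alternatives were DESeq2 1.42.0, limma-voom (limma 3.58.1), other scalings, filters and strand columns, a replicate block, the deeper kidneys as a covariate or left out, and leaving out each kidney. The fits were tested on simulated data. Relations used log2 CPM (prior count 2) and 100000 permutations within groups. Figures were made with matplotlib 3.10.9 in Python 3.11.15.

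Names, positions and exon lengths came from GENCODE M21 on GRCm38 (45143 of 45706 identifiers matched), and promoter sequences from RefSeq (GRCm38.p6), which held 4 of the 9 genes. Of 198 symbols in the marker and pathway lists, 197 matched; 1 further gene of the rolling list is not reported here and stays out of its counts and medians. The genes and lists were chosen with earlier results of these data known. Named besides the 9 genes are the targets Cxcl12 and Myc, the 3 genes most like each of the 9, genes called in a list, and up to 4 of the most abundant genes per list. Ptprc and Pecam1 are named as partners of planned relations.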

Additional observations from a re-analysis of the deposited data

Results flagged for a closer look

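In each group of 5 kidneys, the highest and lowest kidney were compared with their nearest neighbour by Dixon's criterion (gap over range above 0.71), over 33 groups of values, of which chance sets apart about 1 in 20. Myc control 3 stood apart for Sele, the endothelial selectin, at 7.01 CPM with the next kidney at 3.86 CPM (gap over range 0.80). The same kidney stood apart for Itgb2, the β2 integrin chain, at 19.9 CPM with the next at 12.5 CPM (0.79). It is one of the deeper kidneys and had the highest summed neutrophil markers of its group, at 328 CPM.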

How the results depend on the processing

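Of 864 values of the 9 genes under an alternative, 820 kept their direction and side of the threshold, 8 gained a call, 3 lost one and 33 changed sign, all of the latter uncalled. The count of the 9 genes called with loss of Cxcl12 was 1 with the deeper kidneys as a covariate (Itgam), and 0 under every kidney left out. With loss of Myc it was 1 with DESeq2 (Sele) and from 0 to 2 with a kidney left out. Between the controls it was 3 with DESeq2 (Sele 1.16, adjusted p = 0.029, and Selplg 1.39, adjusted p = 0.018, besides Itgam). It was 2 on the forward strand (Itgal 0.97, edgeR adjusted p = 0.045), where 271 of 15377 genes were called. With the replicate block it was also 2 (Selplg 1.31, edgeR adjusted p = 0.047), where 322 of 15903 genes were called. With a kidney left out it was from 0 to 1. The cause was not tested.

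Over all genes, the count with loss of Cxcl12 moved from 0 to 355 with DESeq2, 17 with library size alone, 214 without a filter, 9 on the forward strand, 123 with the deeper covariate, 80 without the deeper kidneys, 25 in the fit of all kidneys and 0 to 15 with a kidney left out. With loss of Myc it moved from 246 to 1081 with DESeq2, 391 with library size alone, 954 with the deeper covariate, 8 without the deeper kidneys, 683 in the fit of all kidneys and 21 to 877 with a kidney left out. The difference of KO effects moved from 11 to 313 with DESeq2, 3 with limma-voom, 5 with library size alone, 4 and 7 on the forward and reverse strand, 133 with the deeper covariate, 44 without the deeper kidneys and 1 to 75 with a kidney left out. The control comparison moved from 316 to 792 with DESeq2 and 49 to 611 with a kidney left out.

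Replicate numbers of the labels gave no clear pairing of the kidneys. The correlation of same-numbered kidneys ran from -0.21 to 0.40, and 2 of 8 matched best with their own number, Cxcl12 replicates 1 and 2. With so few kidneys per group, this check cannot exclude a pairing. With the replicate block, 18 genes were called with loss of Myc and 1 for the difference of KO effects.

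Signs changed as follows (log2). Icam2 with loss of Cxcl12 was 0.15 on the forward strand, 0.10 with the replicate block, 0.020 with the deeper covariate, 0.014 without the deeper kidneys, 9.2e-05 in the fit of all kidneys and -0.11 to 0.099 with a kidney left out. Vcam1 there was -0.23 to 0.0080 with a kidney left out. Itgal there was 0.066 on the forward strand, 0.085 with the deeper covariate, 0.079 without the deeper kidneys and -0.22 to 0.092 with a kidney left out. Icam2 with loss of Myc was -0.0048 with library size alone, -0.084 without the deeper kidneys and -0.010 to 0.12 with a kidney left out. For the difference of KO effects, Icam1 was 0.034 without the deeper kidneys and -0.14 to 0.027 with a kidney left out. Icam2 there was -0.11 on the forward strand, -0.072 with the replicate block, -0.098 without the deeper kidneys and -0.072 to 0.15 with a kidney left out. Itgb2 there was 0.065 on the reverse strand and -0.23 to 0.11 with a kidney left out.

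Of the relations, those that lost an adjusted permutation p under 0.05 were Itgam with Itgb2 (r = 0.83 with deeper means subtracted, 0.64 in 12 kidneys), Itgal with Itgb2 (0.78 in 12 kidneys), Selplg with Ptprc (0.71, 0.44, and 0.40 without the 2 farthest kidneys) and Sele with Selp (0.65, 0.59 and 0.46). The rank correlation of Itgam with Itgb2 also lost it without the 2 farthest kidneys (rho = 0.48). The subset of 12 kidneys was added after seeing the data. Counts of 20 to 238 reads limit Sele and Selp.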
